A study of Rattus norvegicus with 4 samples.

Results

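The Thop1-KO group of this rat embryonic stem cell (ESC) experiment was made up of 3 knockout subclones, #1, #2 and #3, and the comparison here is among them. The members are the 3 Thop1-KO samples of the 4 sequenced samples, chosen by their genotype and subclone number, and the control DA-5-3 GFP entered neither the main scaling nor the counts of differences among subclones. Its CPM, where given, comes from a scaling over all 4 samples. Of 34773 records in the table, 13601 had at least 30 counts summed over the 3 subclones and were compared. Each subclone was sequenced once, so no p-value was computed. A ratio between subclones also contains whatever separates 1 culture and 1 sequencing sample from another, and subclone, culture and sample cannot be told apart.

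All 3 subclones carried a GFP reporter behind Rex1, a naive pluripotency gene, and were derived from DA-5-3 GFP by transfection with Cas9 and Thop1 guides followed by puromycin selection. Each is 1 picked colony. On ploidy the sources differ, since DA-5-3 was a diploid reference in the study while the deposited design text speaks of haploid cells. Culture was on feeder cells in 2i/LIF medium, which holds the MEK inhibitor PD0325901, the GSK3 inhibitor CHIR99021 and the cytokine LIF. The control shares the line, the reporter and the medium.

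A subclone grows from a single cell, so it carries forward whatever genetic or epigenetic state that cell had, beside the edit it was picked for. In ESCs such differences are well known for imprinted genes, for chromosome copy number and for stress and metabolic programmes. Thop1 encodes thimet oligopeptidase, a cytosolic zinc metallopeptidase that trims the short peptides left by the proteasome. ATF4, which recurs in the results, is the transcription factor of the integrated stress response, and it raises genes for amino acid synthesis and import when amino acids are short or the endoplasmic reticulum is stressed.

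A pair of guides to Thop1 was designed for the knockout, and their cloning oligos are shown because every subclone went through the same edit. The capitals are the 20-base spacer and the 5 lower-case bases belong to the cloning end. Which guide cut in which subclone is not stated in the labels, and no genome was at hand to place the spacers.
Thop1 guide 1: caccgCCACCGTGAATCATCTGCGC
Thop1 guide 2: caccgGTACGACCGTGTGGGCGCCC

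Thop1 (ENSRNOG00000019924) was annotated by the authors at chromosome 7, bases 11501146 to 11513581, minus strand. It had 1843 counts in #1, 1635 in #2 and 2680 in #3, against 5500 in the control. In CPM (counts per 1000000 after TMM scaling over the 3 subclones), these levels were 111, 94.1 and 150.4. No subclone was 2-fold from both others, and #3 was the highest. RNA of an edited gene can persist, so this level checks the label in part only.

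Of 19 naive pluripotency genes in the table, 18 were compared and 0 stood 2-fold apart in any subclone, with median log2 ratios to the mean of the other 2 of -0.03 in #1, -0.02 in #2 and 0.10 in #3. Pou5f1, which encodes OCT4, was at 4881, 3957 and 4817 CPM in #1, #2 and #3. Nanog was at 337, 503 and 387 CPM, and Esrrb, a nuclear receptor of the naive network, was at 333, 292 and 331 CPM. Sox2 was lowest in #2, at 376 CPM against 598 in #1 and 674 in #3. Klf4 was highest in #2, at 71.3 CPM against 41.2 and 43.0. The lists of DNA methylation enzymes and imprint maintenance genes (11 compared), BMP targets (10), Nodal pathway genes (6) and LIF and STAT3 genes (11) also held 0 such genes. Of all genes 14.5% stood apart in at least 1 subclone, while among genes with at least 3000 counts no direction in any subclone passed 2.26%, so a count of 0 in lists of this size says little about them.

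Across all genes #2 differed from the other 2 at the most genes. A gene was said to stand apart in a subclone when its CPM was at least 2-fold higher, or at least 2-fold lower, than in each of the other 2. In #2, 573 genes were higher (4.21% of those compared) and 571 were lower (4.2%). In #1, 205 were higher (1.51%) and 536 were lower (3.94%). In #3, 150 were higher (1.1%) and 151 were lower (1.11%). Together 1965 genes, or 14.5%, stood apart in at least 1 subclone, and 221 of them did so in 2, being highest in 1 and lowest in another with the remaining subclone 2-fold from both.

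**Figure D1:**
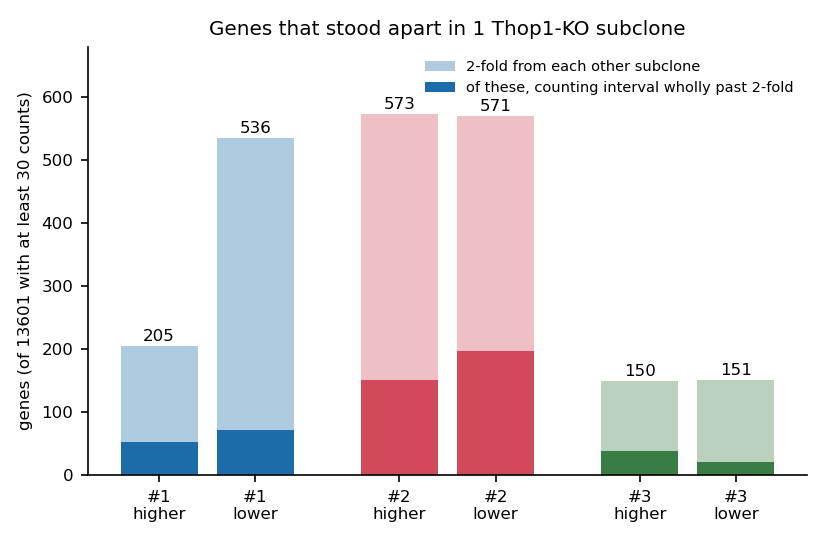
Number of genes at least 2-fold higher or lower in 1 subclone than in each of the other 2 (full bars, y axis in genes), with the part whose counting interval lies wholly past 2-fold in solid colour. #2 has the tallest pair of bars, 573 and 571 genes, and #3 the shortest, 150 and 151.

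Pairwise, #1 and #2 were 2-fold apart at 2698 genes (19.8%), #2 and #3 at 1721 (12.7%) and #1 and #3 at 1245 (9.15%). The median absolute log2 ratio, with 2 CPM added to each level, was 0.34, 0.27 and 0.21 in that order. For 51.3% of the genes #3 had the middle level of the 3, whereas #1 did for 27.4% and #2 for 21.3%. #3 thus lay between the other 2 more often than either of them lay between the rest.

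Many genes that stood apart had few counts, with medians of 59 to 239 counts over the 3 subclones in the 6 sets, against 757 over all genes. Where both ratios had an exact (Clopper-Pearson) 95% interval wholly past 2-fold, 151 genes were higher and 197 lower in #2, 53 and 72 in #1, and 38 and 20 in #3. These intervals, and those below, cover counting error only. Among the 3268 genes with 3000 counts or more, 2.26% were lower in #2, while 0.337% were higher in #2, 0.214% higher and 0.337% lower in #1, and 0.0612% higher and 0% lower in #3. The lower genes of #2 were therefore the one group that reached far into abundant mRNAs, with 148 members of 1000 counts or more.

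The genes lower in #1 included much of the ATF4 programme. Of 20 ATF4 targets compared, 8 were at least 2-fold lower in #1 than in both other subclones, against 3.94% of all genes, and 0 were higher. The list median was -0.86 in #1, 0.47 in #2 and 0.36 in #3, on the log2 scale with 2 CPM added, against -0.02, -0.00 and -0.01 over all genes. These 3 medians share the same levels, so a low #1 raises the other 2. #1 had the lowest level of 19 of the 20 targets, against 37.2% of all genes. The exception was Aldh18a1, of proline synthesis, at 29.8 CPM in #1 and 26.8 in #2.

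Chac1, a glutathione-degrading enzyme, had 121 counts in #1, 1114 in #2 and 606 in #3, or 7.27, 64.1 and 34.0 CPM, so #1 was 4.68-fold below the nearer subclone (95% interval 3.84 to 5.73). Trib3, a pseudokinase that feeds back on ATF4, was at 19.5, 79.0 and 83.4 CPM, 4.06-fold lower in #1 (3.59 to 4.59). Slc7a3, a cationic amino acid transporter, was at 112, 559 and 329 CPM, 2.95-fold lower (2.79 to 3.10). In all 3, #1 was far below 2 subclones that were themselves within 2-fold.

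Atf5, Atf3 and Cebpb, transcription factors of the same response, were 2.44-, 2.53- and 2.19-fold lower in #1 than in the nearer subclone. Pck2, the mitochondrial enzyme that makes phosphoenolpyruvate, was 2.26-fold lower. Vldlr, a lipoprotein receptor, was at 0.84, 5.76 and 1.91 CPM, so it was also 3.02-fold higher in #2 than in the nearer subclone. Atf4 itself was at 238, 632 and 456 CPM, 1 of the 12 targets that did not pass the 2-fold rule. Of the serine and asparagine enzymes, Psat1 was at 279, 571 and 464 CPM, Asns at 212, 346 and 288 CPM, and Phgdh at 170, 191 and 239 CPM.

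**Figure D2:**
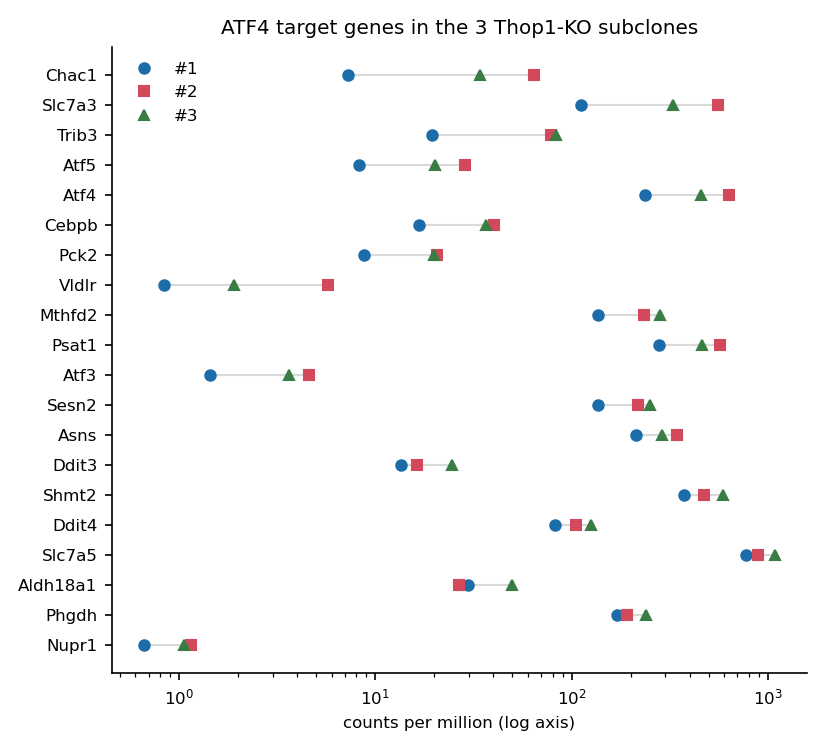
CPM (log axis) of the 20 ATF4 target genes compared, 1 row a gene, in #1 (circles), #2 (squares) and #3 (triangles). #1 is the lowest point in 19 rows, with the widest gaps at Chac1, Slc7a3, Trib3 and Vldlr.

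Promoter windows of these genes were searched for TGATGNAA, the letters of the element bound by ATF4 with a C/EBP partner, on both strands. Of the 20 targets, 17 matched a RefSeq window of 300 bases on GRCr8 (250 before to 50 after an annotated start), and 4 held the letters, of which 3 (Chac1, Pck2 and Trib3) were genes lower in #1. Over all genes with a window, 4.16% held them. The 4 stretches are shown because they lie at genes of this list, with the match in capitals. Each runs 5′ to 3′ in the direction of the gene, and each match is on the opposite strand, so it appears as the reverse complement. A match is a description of letters, not a binding site.
Trib3, chr3:161275536-161275565, minus strand: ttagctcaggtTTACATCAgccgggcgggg
Chac1, chr3:126795953-126795982, plus strand: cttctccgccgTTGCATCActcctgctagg
Pck2, chr15:32997603-32997632, plus strand: agccttcaaagTTACATCAgtatccttgca
Nupr1, chr1:190645938-190645967, minus strand: aaaaggccagaTTGCATCAgacagggcttg
The match began 21 bases before the annotated start in Trib3, 167 in Chac1, 239 in Pck2 and 55 in Nupr1. Nupr1, a small stress-induced chromatin protein, had only 11, 20 and 19 counts.

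Herpud1 and Hsp90aa1 were further stress genes that stood apart in #1. Herpud1, a component of endoplasmic reticulum-associated degradation, was at 27.7, 99.3 and 66.1 CPM in #1, #2 and #3, 2.39-fold lower in #1 (2.14 to 2.67). Of 13 unfolded protein response genes it was the only one that stood apart, while 3.94% of all genes were lower in #1. In #1, 2 of the 13 were lowest and 3 highest, against 37.2% and 35.4% of all genes, with a median of -0.12. The list was lowest in #3 for 9 of the 13, against 23.8% of all genes, with a median of -0.31. It was highest in #2 for 10, against 39.7%. Hspa5, which encodes the chaperone BiP, was at 280, 474 and 203 CPM. Hsp90aa1, the inducible cytosolic HSP90, had 283 counts in #1, 612 in #2 and 2443 in #3, so it was both 2.07-fold lower in #1 and 3.89-fold higher in #3. Of 10 heat shock genes compared, 1 was 2-fold lower in #1 and 1 was 2-fold higher in #3, against 3.94% and 1.1% of all genes. In #1, 6 of the 10 were lowest and 3 highest.

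Several lineage genes, most of them with few counts, were lower in #1. Of 9 neural markers compared, 8 were lowest in #1 and 5 were 2-fold lower there, against 37.2% and 3.94% of all genes. Among all genes with 30 to 100 summed counts, as Nefm, Map2 and Sox21 had, 12.5% were lower in #1. Nefl, the light neurofilament, was at 16.4, 68.6 and 47.3 CPM, 2.88-fold lower (2.51 to 3.31). Gap43, of growing axons, had 7, 73 and 25 counts, Nefm 9, 23 and 24, and Map2 2, 19 and 10. Sox21, a neural transcription factor, had 0, 26 and 10 counts, at least 3.11-fold lower in #1 with the floor set at 3 counts in a sample. Krt19, a keratin of simple epithelia and trophectoderm, was at 70.9, 248.5 and 156 CPM, 2.2-fold lower in #1 (2.05 to 2.36). Of 7 trophectoderm markers compared, 2 were 2-fold lower in #1, against 3.94% of all genes. In #1, 5 of the 7 were lowest and 2 highest, and their summed level was highest there, at 660 CPM against 569 in #2 and 577 in #3. Dcx, of migrating neurons, was the neural gene that went another way, with 19, 17 and 88 counts.

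The 6 genes furthest below the nearer subclone in #1, of those named by rule, were Nhp2, LOC100912571, Stc2, Echs1, Map2k3 and Slc6a9. Nhp2, of the box H/ACA ribonucleoprotein that guides pseudouridylation and holds telomerase RNA, had 86 counts in #1 against 2435 in #2 and 2603 in #3, 27.1-fold lower (21.9 to 34.0), and the control had 155. Stc2, a secreted glycoprotein, had 39, 430 and 440 counts, 10.5-fold lower (7.59 to 15.0). Slc6a9, a glycine transporter, had 125, 646 and 810 counts, 4.95-fold lower (4.08 to 6.04). Map2k3, the kinase above p38, had 46, 319 and 332 counts, and 24 in the control. Echs1, of fatty acid oxidation, had 24, 238 and 643 counts and overlaps Zfp710. LOC100912571, an Eif4g1-like record, had 55, 868 and 573 counts, but with Eif4g1 added the sums were 7256, 9703 and 7526, and #1 was no longer below.

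The genes furthest above in #1 were Timm17b, LOC108348144, LOC103690054, Capns1, Slc2a3 and Ebna1bp2. Slc2a3, the high-affinity glucose transporter GLUT3, had 4549 counts in #1, 189 in #2 and 493 in #3, or 273, 10.9 and 27.7 CPM. It was 9.88-fold higher in #1 than in the nearer subclone (9.0 to 10.9) and 2.54-fold lower in #2 (2.15 to 3.03), while the control had 14 counts. No other glycolysis gene of the 17 compared was higher in #1. Timm17b, of the mitochondrial inner-membrane translocase, had 1291, 20 and 36 counts, 38.4-fold higher (27.6 to 55.1). Capns1, the small calpain subunit, had 2103, 106 and 176 counts, and with its 2 like-named records added 2367, 299 and 434. LOC103690054, an RNA polymerase II subunit record, had 649, 9 and 12 counts. Ebna1bp2, a nucleolar ribosome biogenesis factor, had 387, 29 and 23 counts.

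A pair of p53 targets of cell cycle arrest were higher in #1. Cdkn1a, which encodes p21, was at 170, 54.0 and 78.4 CPM, 2.17-fold higher (2.04 to 2.32). Gadd45a, a DNA damage and stress sensor, was at 22.8, 4.66 and 7.02 CPM, 3.26-fold higher (2.65 to 4.02). The other 15 of 17 p53 targets were not higher by the rule, which 1.51% of all genes passed in #1, and the list median in #1 was 0.09. Of 19 G2 and M phase genes 14 were lowest in #1, against 37.2% of all genes, with a median of -0.35. Cenpf, a kinetochore protein, was the one 2-fold lower in #1 (6.31, 18.9 and 17.9 CPM). Gata6, of primitive endoderm, had 63, 24 and 16 counts and was 2.74-fold higher in #1. It was the only 1 of 13 primitive endoderm markers compared that was higher in #1 by the rule. Of the 13, 5 were highest and 7 lowest in #1, with a median of -0.12 there.

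Some genes of sterol synthesis were higher in #2. Of 22 cholesterol synthesis and uptake genes, 3 were at least 2-fold higher in #2 than in both others, against 4.21% of all genes, 17 had their highest level there and 4 their lowest, against 39.7% and 39.0% of all genes, and the median was 0.56. Hmgcs1, which makes the HMG-CoA that feeds the pathway, was at 51.3, 146.5 and 34.5 CPM in #1, #2 and #3, 2.86-fold higher in #2 (2.64 to 3.09). Idi1, the isopentenyl isomerase, was at 8.6, 19.1 and 9.15 CPM, 2.08-fold higher (1.72 to 2.53), and overlaps Wdr37. Dhcr7 at 113, 222 and 120 CPM, Cyp51 at 131, 236 and 115 CPM and Sqle at 70.9, 132 and 75.1 CPM stayed inside 2-fold. TCACNCCAC, the letters of a sterol regulatory element, were in 0 of the 16 promoter windows that matched the list and in 1.25% of all genes with a window.

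Some fibroblast genes were also higher in #2, and the cells were grown on feeders. Of 18 such markers compared, 8 were 2-fold higher in #2, against 4.21% of all genes. Their highest level was in #2 for 16 and their lowest in #1 for 14, against 39.7% and 37.2% of all genes. Col3a1, a fibrillar collagen, was at 16.3, 81.4 and 37.2 CPM, so it was 2.19-fold higher in #2 and 2.29-fold lower in #1. Col5a2 was at 8.9, 35.1 and 11.1 CPM, and Pdgfrb, a receptor of mesenchymal cells, at 1.74, 6.33 and 2.47 CPM. S100a4, a calcium-binding protein of fibroblasts, had 55, 291 and 93 counts, and Acta2, smooth muscle actin, 38, 121 and 31. Twist1 and Twist2, mesenchymal transcription factors, had 40, 130 and 55 and 17, 91 and 40 counts, and Postn had 6, 18 and 8. Among all genes with 30 to 100 summed counts, as Postn had, 11.8% were higher in #2. With 100 to 300, as Acta2, Twist1 and Twist2 had, the share was 7.41%.

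The markers did not all move one way. Fbln1, a matrix glycoprotein, was 2.34-fold lower in #2 (523, 192 and 449 CPM). Fn1, the most abundant, was at 3828, 3830 and 3926 CPM, and the summed level of the list, 4875, 5100 and 5061 CPM, is mostly Fn1. The 5 markers below 30 counts were Dcn, Lum, Thy1, Fap and Mgp, with at most 1 count in any subclone, 4 of them at 0 in all 3. How far RNA of other cells takes part in the gene differences of #2 was not tested.

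Caudal homeobox genes stood apart in #2. Cdx2, a caudal homeobox factor of trophectoderm and posterior mesoderm, had 56, 634 and 89 counts, or 3.37, 36.5 and 5.0 CPM, 7.30-fold higher in #2 (5.84 to 9.22), beside 361 in the control. Cdx1 had 2, 37 and 2 counts, a ratio of 17.7 to the nearer subclone with a counting interval of 4.57 to 152. Of 16 Hox genes compared, 12 had their highest level in #2 and 10 their lowest in #1, against 39.7% and 37.2% of all genes. Hoxb9 had 12, 73 and 35 counts, Hoxc6 30, 99 and 20, and Hoxc10 20, 46 and 14, and these 3 were 2-fold higher in #2. Hoxb6, Hoxb7, Hoxb9 and Hoxc4 were 2-fold lower in #1, with 12 counts or fewer in it. Over all genes 4.21% were higher in #2 and 3.94% lower in #1. Among genes with 30 to 100 summed counts these shares were 11.8% and 12.5%, and with 100 to 300 they were 7.41% and 6.9%. At such low counts the Hox calls say little about these genes. Gsc and Tbx6, of mesendoderm, went the other way in #2, with 308, 104 and 353 counts and 27, 4 and 23.

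Of 24 imprinted genes compared, 3 were 2-fold higher and 2 were 2-fold lower in #2, against 4.21% and 4.2% of all genes, and 16 had their highest level there, against 39.7%. Dio3, the thyroid hormone deiodinase of the Dlk1 to Dio3 cluster, had 146, 622 and 229 counts, 2.79-fold higher (2.39 to 3.26). Mest, a hydrolase-fold protein, had 58, 191 and 44, and Ndn, a growth-restraining MAGE protein, 43, 146 and 54. Igf2r, the receptor that clears IGF2, was far more abundant, with 14763, 4733 and 12673 counts, 2.61-fold lower in #2 (2.53 to 2.70). Sgce, a sarcoglycan beside Peg10, had 66, 26 and 129 counts. Igf2 was at 48.2, 106 and 64.7 CPM, highest where Igf2r was lowest, and did not reach 2-fold from #3. Grb10, an adaptor of insulin signalling, had 14, 76 and 51 counts, 3.40-fold lower in #1.

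Targets of ERK signalling did not move as a block. In #2, Dusp6, an ERK phosphatase, had 49 counts against 21 in #1 and 13 in #3, Spred1 had 25 against 4 and 9, and Fosl1 had 20 against 6 and 8, all with few counts. Etv4, an ETS factor downstream of FGF, had 88, 467 and 190 counts, 2.52-fold higher in #2 (2.12 to 3.00) and 2.02-fold lower in #1 (1.56 to 2.63). Il17rd, an FGF pathway inhibitor, went the other way, at 129, 31.0 and 86.1 CPM, 2.78-fold lower in #2 (2.52 to 3.07). Of the 19 genes compared, 4 were 2-fold higher and 1 was 2-fold lower in #2, against 4.21% and 4.2% of all genes. Among genes with 30 to 100 summed counts, as Dusp6, Spred1 and Fosl1 had, 11.8% were higher in #2. The median of the 19 genes in #2 was -0.30.

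The genes furthest above in #2 were LOC100911417, Ndufa1, Mrpl53, Cdx2, LOC100912538 and Abl1. Ndufa1, a small subunit of respiratory complex I, had 4, 431 and 5 counts in #1, #2 and #3. LOC108348144, a record on the same chromosome described as that subunit, had 597, 4 and 8 counts. #1 and #2 therefore each had one of the records and #3 had neither, and the control had 10 and 475. Mrpl53, of the mitochondrial ribosome, had 32, 464 and 6 counts, 13.9-fold higher in #2 (9.70 to 20.5). Abl1, a tyrosine kinase, had 37, 317 and 33 counts, 8.20-fold higher (5.83 to 11.9), and 7 in the control. LOC100911417, an ATP synthase subunit record, had 33, 822 and 29 counts, and LOC100912538, a centrin record, 9, 190 and 9.

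The genes furthest below in #2 were Nfs1, LOC103690015, Podxl2, Dok3, AABR07073045.1 and Gas6. Nfs1, the cysteine desulfurase of iron-sulfur cluster assembly, had 336, 13 and 557 counts, 27.0-fold lower in #2 (15.6 to 51.2), and 23 in the control. A second Nfs1 record had 15, 1 and 2. Gas6, the ligand of the TAM receptor kinases, had 3109, 393 and 2169 counts, 5.38-fold lower (4.83 to 6.01). Podxl2, a sialomucin, had 906, 121 and 942, 7.59-fold lower (6.28 to 9.25), and Dok3, a docking protein, 684, 88 and 1004, 8.12-fold lower (6.49 to 10.3). The remaining 2 are ribosomal protein-like records, with 1234, 165 and 1451 counts for LOC103690015 and 191, 11 and 202 for AABR07073045.1. H1f2, a linker histone, was at 30.5, 10.2 and 25.3 CPM, and it is 1 of the 4 H1 genes that were 2-fold lower in #2. Of 18 histone genes compared, 4 were 2-fold lower in #2, against 4.2% of all genes. In #2, 10 of the 18 were lowest and 5 highest, against 39.0% and 39.7% of all genes. Of the 18, 2 were 2-fold higher in #3 and 1 was 2-fold lower in #1, against 1.1% and 3.94% of all genes. Zic2, a zinc finger factor of formative pluripotency, was at 158, 63.0 and 132 CPM, 2.09-fold lower in #2 (1.95 to 2.25). The formative and primed genes did not share one direction in #2. Of the 11 compared, 1 was 2-fold lower and 1 was 2-fold higher in #2, against 4.2% and 4.21% of all genes. In #2, 4 of the 11 were lowest and 5 highest, against 39.0% and 39.7% of all genes, with a median of 0.13. In #1, 1 of the 11 was 2-fold lower, against 3.94% of all genes.

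In #3 few genes stood apart, and most that did had fewer than 1000 counts: 4 of 150 higher and 2 of 151 lower genes had more. The furthest above were Eras, LOC108348083, LOC103694876, LOC108348062, LOC108348172 and Fgd1. Eras, a constitutively active Ras of ESCs, had 54, 23 and 1234 counts in #1, #2 and #3, or 3.25, 1.32 and 69.3 CPM, 21.3-fold higher in #3 (16.3 to 28.6), and 80 in the control. Eras and LOC108348172, described as proSAAS (53, 23 and 372 counts), both overlap the record of Pqbp1 on chromosome X. Reads there could fit more than 1 record, and how they were counted was not checked. LOC108348083, a delta-1-pyrroline-5-carboxylate synthase record, had 32, 26 and 343 counts, and LOC103694876, a Smarcb1-like record on an unplaced scaffold, 46, 52 and 437. Fgd1, a guanine nucleotide exchange factor, had 38, 36 and 251, but with the record of the same description added the sums were 2967, 1562 and 2703. LOC108348062 had 108, 97 and 749 counts and, with its like-named record added, 2030, 2455 and 3333.

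The furthest below in #3 were NEWGENE_1310561, Mrpl36, Hnrnpab, Gspt1, LOC108348298 and LOC103692173. NEWGENE_1310561, described as programmed cell death 5, had 1007, 981 and 13 counts, 77.4-fold lower in #3 (45.0 to 146), and 16 in the control. Pdcd5, of the same description, had 5, 7 and 11 counts, beside 621 in the control. #3 therefore had little of either. Hnrnpab, an RNA-binding protein, had 848, 1346 and 293 counts, 3.10-fold lower (2.71 to 3.55). Mrpl36, of the mitochondrial ribosome, had 322, 286 and 75, and Gspt1, the translation release factor eRF3a, 175, 256 and 45, 4.16-fold lower (2.99 to 5.91). LOC108348298 had 89, 124 and 18 counts, and LOC103692173 had 93, 134 and 34, with a counting interval of 1.96 to 4.48 that reaches below 2-fold.

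**Figure D3:**
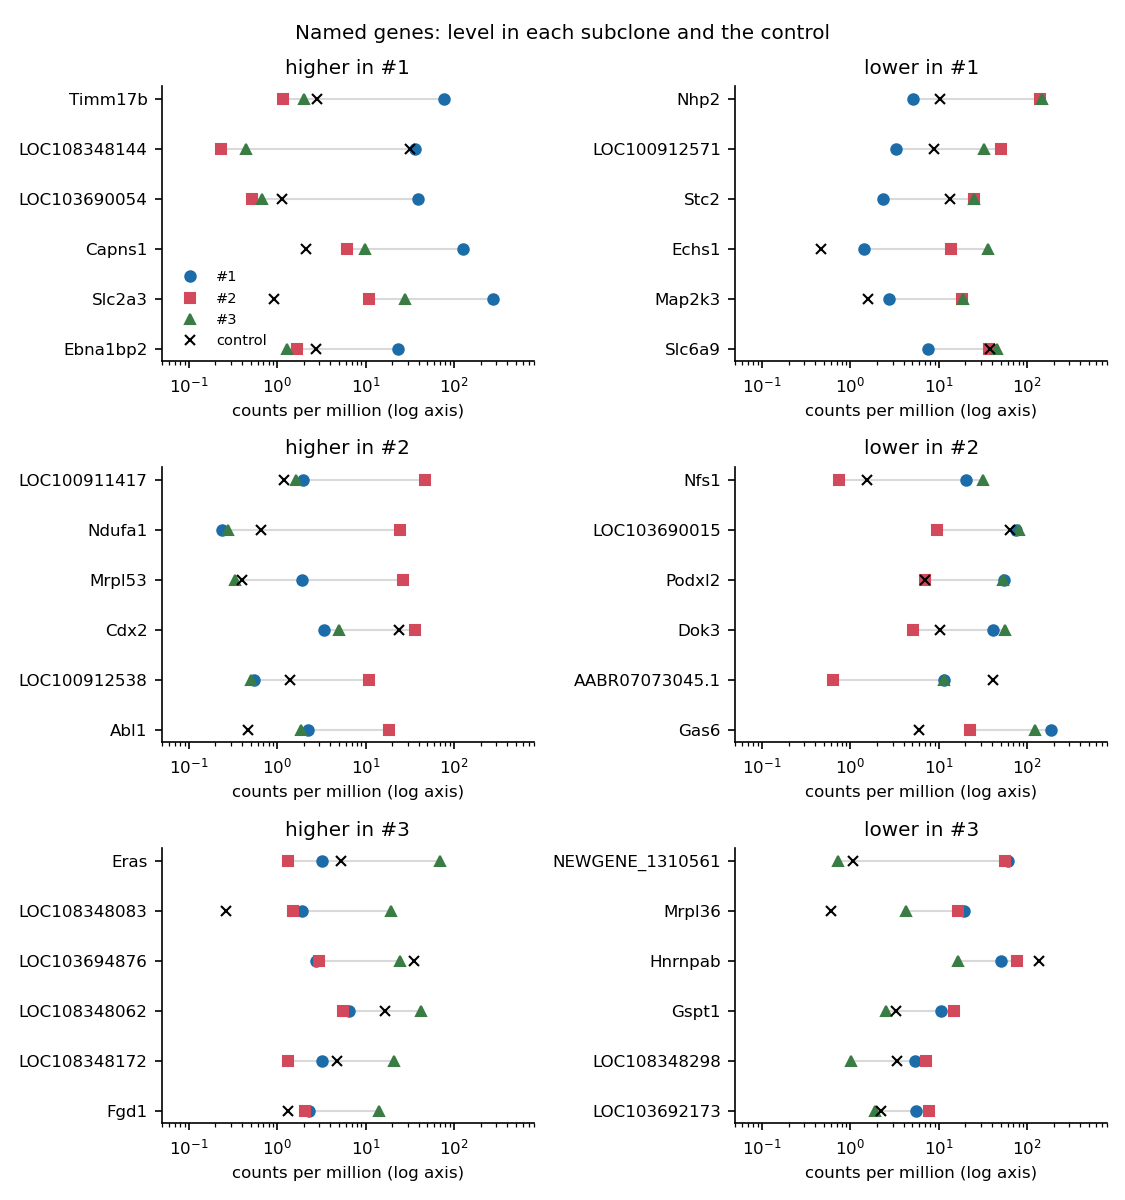
CPM (log axis) of the 36 genes named by rule, 6 for each subclone and direction, in #1 (circles), #2 (squares), #3 (triangles) and the control DA-5-3 GFP (crosses, scaled with all 4 samples). In each row the subclone of the panel's title lies outside the other 2, as Nhp2 does at 5.17 CPM in #1 against 140 and 146.

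Records that may share reads with a copy were frequent among these extremes. A record was counted as such when another record had its symbol or description, its description ended in "-like", or its name was provisional. That held for 18 of the 36 named genes (50.0%), for 13.4% of all genes compared, for 38.5% of the genes higher and 18.7% of those lower in #1, for 21.5% and 22.2% in #2, and for 32.0% and 33.8% in #3. With records of the same symbol or description summed, 3 of the 36 (Fgd1, LOC100912571 and LOC103692173) no longer pointed the same way and LOC108348062 was under 2-fold, while 32 still stood apart. The sum missed copies that are described in other words. It did not join Ndufa1 with LOC108348144, whose log2 ratios stayed at 3.56 in #2 and 3.95 in #1. Both are among the 32, so that number is no measure of how many calls are free of copies. How reads that fit several places were counted is not given in the sources used here.

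Over the 35 lists, the widest medians were those of ATF4 targets in #1 (-0.86), fibroblast markers in #2 (0.68) and in #1 (-0.65), and neural markers in #1 (-0.60). The widest in #3 was that of the cholesterol genes (-0.41), of which 12 of 22 were lowest in #3, against 23.8% of all genes. Ribosomal protein genes, 88 compared, were highest in #1 for 64 of them, against 35.4% of all genes, by a median of only 0.15. Of the 13 mitochondrially encoded protein genes 11 were lowest in #1, against 37.2% of all genes, with a median of -0.46, and 0 stood 2-fold apart. Their summed level was 12930, 12180 and 12750 CPM, highest in #1. Mt-nd3, of complex I, was at 61.3, 120 and 86.8 CPM, while Mt-co1, of cytochrome oxidase and the most abundant, was highest in #1, at 8203, 6115 and 6824 CPM. Of the 20 records on the mitochondrial chromosome, with medians of -0.29, 0.15 and 0.10, 2 were 2-fold higher in #1. They were AY172581.9, a ribosomal RNA with 9533, 2958 and 5095 counts, and AY172581.18, a transfer RNA with 963, 333 and 444, both named after their values were seen.

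**Figure D4:**
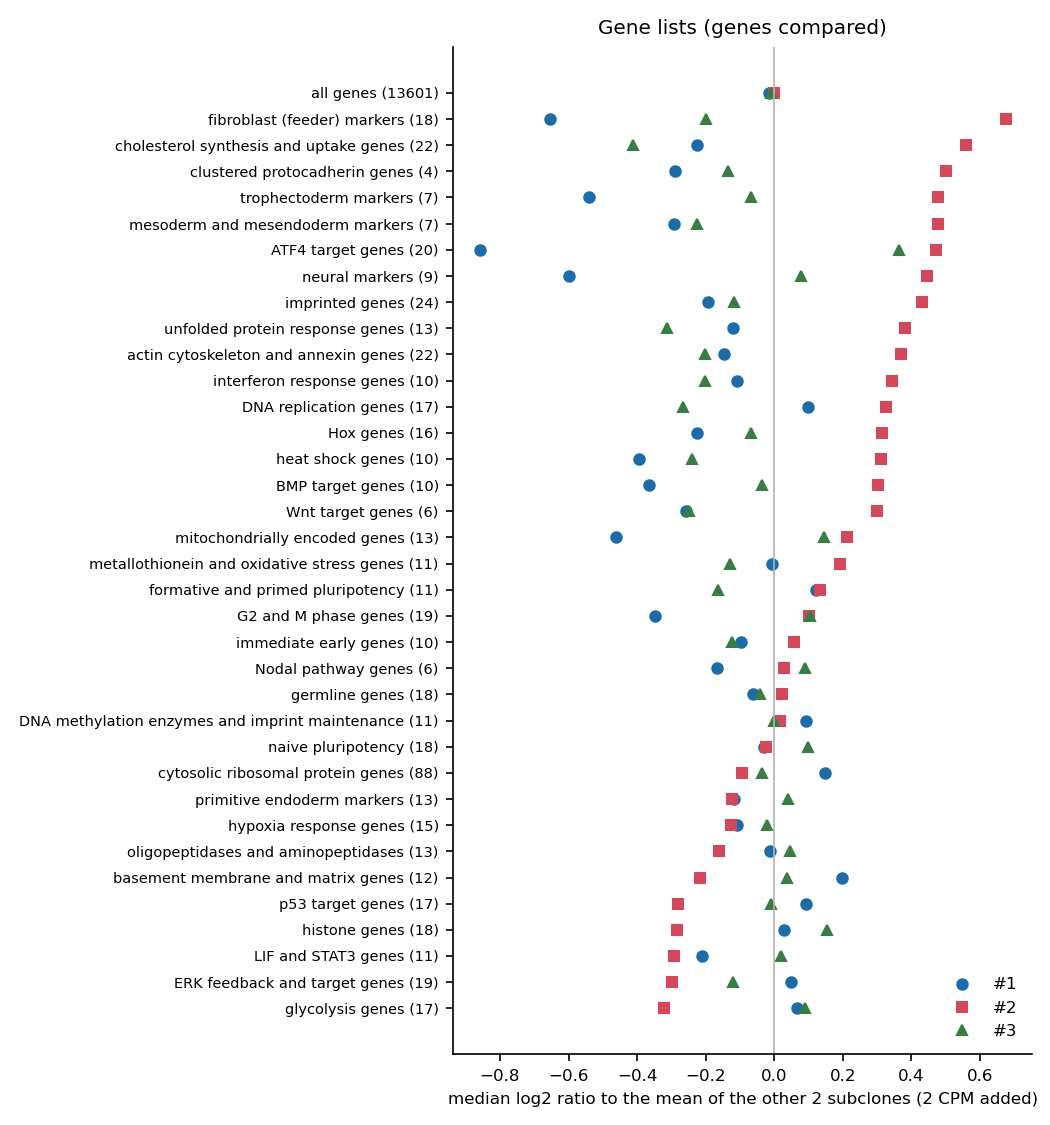
Median log2 ratio of each subclone to the mean of the other 2, with 2 CPM added (x axis), for 35 gene lists and all genes, with the number of genes compared in parentheses. The points of the naive pluripotency list sit within 0.10 of 0, while ATF4 targets reach -0.86 in #1 and fibroblast markers 0.68 in #2.

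The remaining lists held few genes that stood apart. Of 10 interferon response genes, Isg15 and Ifitm3 were higher in #2, at 7.54 and 22.0 CPM against 3.49 and 10.9 in #1 and 2.41 and 10.8 in #3, and Mx2 was lower in #3 with 9 counts against 23 and 38. Over all genes 4.21% were higher in #2 and 1.11% lower in #3. Ankrd37 was the hypoxia gene that stood apart, lower in #1 with 41 counts against 164 and 90. Ide, the insulin-degrading enzyme and 1 of 13 oligopeptidases and aminopeptidases compared, was at 31.9, 79.0 and 38.3 CPM, 2.06-fold higher in #2 (1.88 to 2.26). Tpm2, a tropomyosin, was 2.54-fold higher in #2, and Col4a2, of basement membranes, 2.18-fold. Of 22 actin cytoskeleton and annexin genes compared, 1 was 2-fold higher in #2, against 4.21% of all genes. In #2, 14 of the 22 were highest and 7 lowest, against 39.7% and 39.0% of all genes. Of 12 basement membrane and matrix genes, 1 was 2-fold higher in #2, against the same 4.21%. However, 2 of the 12 were highest and 7 lowest there, against the same 39.7% and 39.0%, with a median of -0.22. Ccnd2, a Wnt-responsive cyclin, had 7, 33 and 9 counts.

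Autosome medians were near 0. Across the 20 autosomes the medians of the log2 ratio ran from -0.09 to 0.07 in #1, from -0.11 to 0.09 in #2 and from -0.03 to 0.02 in #3. Against the autosomes the X chromosome had wider medians in all 3 subclones, over 442 genes, at -0.15 in #1, 0.16 in #2 and -0.04 in #3, and 7.47% of its genes were higher in #2. Chromosome Y had 48 records, of which 1 reached 30 counts, with sums of 19, 24 and 10 counts and 1 in the control.

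**Figure D5:**
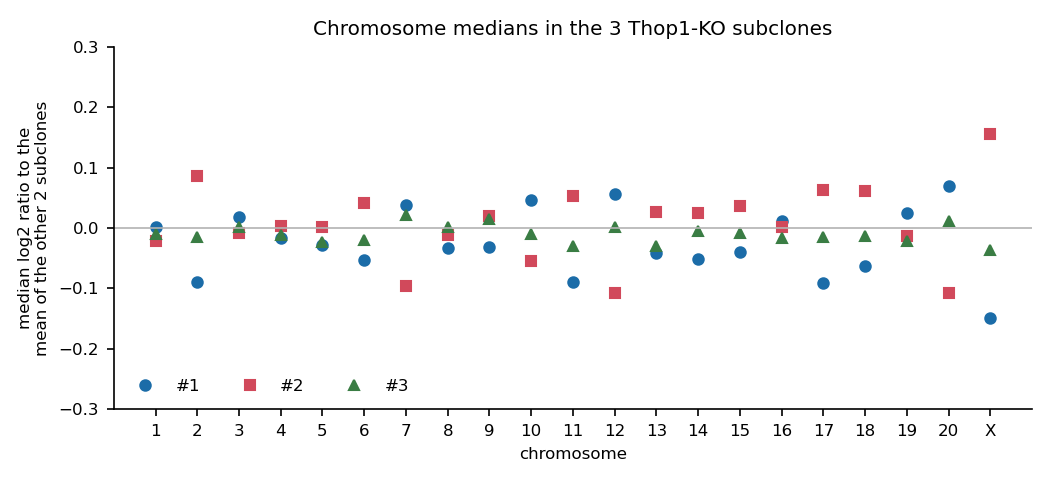
Median log2 ratio of each subclone to the mean of the other 2 (y axis, 2 CPM added) over the genes of each autosome and X. All points lie between -0.15 and 0.16, and the widest spread is on X.

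In running windows of 15 neighbouring genes, 0 of 13254 medians in any subclone reached a log2 ratio of 1. The widest was -0.74 in #2, on chromosome 1 from 141866283 to 142183884, from Idh2 to Fes. In it Idh2, the mitochondrial isocitrate dehydrogenase, was at 1472 CPM in #1, 539 in #2 and 1203 in #3, and Fes, a tyrosine kinase, at 275, 71.0 and 218 CPM. Unc45a, a myosin chaperone in the same stretch, was at 405.5, 405.6 and 395 CPM and was the exception, since the other 14 of the 15 genes had ratios below 0 in #2. On X the widest window was in #2, from 72004482 to 73552587, with a median of 0.58, where Rps4x, a ribosomal protein gene, was at 1704 CPM in #1 and 1576 in #2 and Ct55 at 95.5 and 166.

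The control level of the genes that stood apart differed between the sets. Of the 571 genes lower in #2, the control lay nearer on the log2 scale to #2 than to the mean of the other 2 for 410, or 71.8%, and it lay beyond #2, lower still, for 241. Of the 573 genes higher in #2, it lay nearer to #2 for 53.4%. The same share was 23.9% of the 205 genes higher and 38.3% of the 536 lower in #1, and 30.7% of the 150 higher and 52.3% of the 151 lower in #3. Gas6 had 90 counts in the control and Igf2r 1032, both below #2, while Chac1 had 1559 and Slc7a3 16577, both above #2 and #3. The control is 1 sample, and these shares are a description.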

How the data were processed

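Poly(A) RNA of 3 Thop1-KO GFP subclones and of DA-5-3 GFP was sequenced, 1 sample each. Raw counts for each gene were deposited, for which the submitters' processing notes name HISAT2 2.0.5 and featureCounts 1.5.0-p3, and so were FPKM values. Genome build, strand setting and handling of reads with several matches are not given in the sources used here. The deposited counts summed to between 16525074 and 17936544 in the subclones. Counts were scaled by TMM (edgeR 4.0.16, R 4.3.3) over the 3 subclones, and records with at least 30 counts were compared in Python 3.11.15. A gene stood apart when it was 2-fold from each other subclone. List and chromosome medians used log2 ratios to the mean of the other 2 with 2 CPM added. Ratio intervals are exact binomial at 95%. Named genes are, per subclone and direction, the 6 protein-coding genes with a symbol and at least 100 counts that lay furthest from the nearer subclone, Thop1, and list members 2-fold from both others; a few list members inside 2-fold are given for context. Records with no symbol were counted only. The subclones, the lists and the rules were chosen with earlier results of these data known. Promoter windows are from RefSeq (GRCr8), matched by symbol. Some genes of the lists are not reported here.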

Additional observations from a re-analysis of the deposited data

How the results depend on the processing

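No paired analysis was possible because the control's label gives no replicate number (its 1 in the sample list is only a name) and each subclone was sequenced once. Other scalings (median-of-ratios, upper quartile, total counts, TMM with the control), the deposited FPKM values, a correction for gene length (loess, span 0.3) and a sum over copies, which was added after the data were seen, moved none of the counts of genes that stood apart or of the pairs by more than 1.5 times. The filter, the added CPM, the counting interval and the reference each moved the totals. In the order #1 higher, #1 lower, #2 higher, #2 lower, #3 higher, #3 lower, the counts were 1195, 1460, 2173, 1248, 1129 and 936 with no filter, 90, 245, 299, 376, 58 and 34 with at least 100 counts, 86, 103, 238, 285, 53 and 20 with 1 CPM added, 53, 72, 151, 197, 38 and 20 where the exact interval had to lie past 2-fold, and 469, 1130, 939, 985, 301 and 504 against the mean of the other 2. In the order #1 and #2, #1 and #3, #2 and #3, the pairs were 6593, 4776 and 5543 apart with no filter, 1712, 519 and 948 with at least 100 counts, 1544, 346 and 804 with 1 CPM added and 1098, 252 and 546 by the interval. The list members that stood apart were 84, and 176, 46 and 35 with no filter, with 1 CPM added and by the interval. Without 1 subclone, which leaves a single ratio, the ranges were 431 to 1196 higher and 814 to 1502 lower in #1, 866 to 1502 and 855 to 1196 in #2, and 814 to 855 and 431 to 866 in #3. With copies summed, the log2 ratios of Fgd1 (-0.23), LOC100912571 (0.046) and LOC103692173 (0.66) turned. That sum left Ndufa1 and LOC108348144 as separate records. Of 504 values of named genes under these alternatives, 499 kept their direction and their side of 2-fold. These genes were chosen for the largest ratios in the same data and for at least 100 counts. Dropping the filter or raising it to 100 counts could not change them, so the 499 are no independent check. By total counts the naive pluripotency medians were -0.11 in #1 and 0.07 in #2. With 1 sample a subclone, no ratio has a replicate check.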

Other observations

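A few further gene groups were put together after the values of #2 had been seen, so their counts are a description and support nothing. Of 40 lysosomal enzymes and cathepsins compared, 10 were 2-fold lower in #2, against 4.2% of all genes. Their lowest level was in #2 for 31, against 39.0% of all genes, with a median log2 ratio of -0.60. Ctsb, cathepsin B, had 24579, 10754 and 25408 counts in #1, #2 and #3, Grn, progranulin, 19385, 8318 and 18211, and Hexa, a hexosaminidase subunit, 12645, 5273 and 11286. Gaa, the acid glucosidase, was 2.83-fold lower in #2 than in the nearer subclone, while Lipa, the acid lipase, was 2.26-fold higher. Igf2r, the receptor that also carries mannose 6-phosphate-tagged enzymes to lysosomes, was lower in #2 as well.

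Of 22 claudins and other epithelial junction genes, 7 were 2-fold lower in #2 and 3 were 2-fold higher in #1, against 4.2% and 1.51% of all genes. Cldn4 was at 551, 118 and 422.5 CPM in #1, #2 and #3, Tjp3 at 236, 69.2 and 203 CPM and Crb3 at 53.4, 9.09 and 33.3 CPM. Cldn6, at 37.6, 4.03 and 11.1 CPM, and Cldn7, at 45.3, 6.45 and 21.4 CPM, formed a series in which all 3 subclones were more than 2-fold apart. Of 30 SR and hnRNP splicing factors, 21 were highest in #2 and 3 were 2-fold higher there, against 39.7% and 4.21% of all genes. These 3 were Srsf3 at 185, 407 and 201 CPM, Srsf6 at 63.6, 186 and 91.8 CPM and the cold-induced Rbm3 at 103, 306 and 118 CPM.

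Gene length went weakly with subclone. From the shortest to the longest of 5 equal classes of genes the median log2 ratio went from 0.04 to -0.10 in #1 and from -0.08 to 0.04 in #3.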
